A study of Homo sapiens with 32 samples.

Results

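The 5 genes SCN3A, SCN2A, SCN1A, SCN9A and SCN7A encode pore-forming alpha subunits of sodium channels and lie together on human chromosome 2. They are 5 of the 19974 protein-coding genes of the RefSeq table used (GRCh38.p14). The genes were listed by name as the members of the cluster, and the cluster was chosen by measured values: the H3K27me3 coverage of SCN2A and SCN1A in these same libraries was already known to be lower with an EZH2 inhibitor. Comparisons with and without the EZH2 inhibitor are therefore given for the 5 genes as a description with no test. Tests are given for the p38 inhibitor, whose contrasts did not choose the genes.

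All libraries came from MDA-MB-231, an established human cell line of triple-negative breast cancer, sampled after 24 h. The groups were cells given EPZ with P38i (combo), EPZ alone (EP7 in the sample titles), P38i alone, and cells with no treatment (control). The study's design text names the agents as an EZH2 inhibitor and a p38 inhibitor and does not give their doses or a vehicle. Each group had 4 libraries made with an antibody to H3K27me3 by ChIPmentation, in which adapters are added by a transposase to the chromatin held on the antibody beads. A further 16 libraries were made with IgG and had no file among those used. Whether the 4 libraries of a group came from separate cultures is not stated in the labels, so every p-value measures the spread between these libraries, which may be technical.

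Each H3K27me3 library was available as a list of islands, the stretches that a caller of broad enrichment marked, on build hg38. An island has a start and an end and no height, count or score, so each value states how much of a gene or region was called. Read depth is unknown. The main value is the percent of a gene's span, with 2.5 kb added on each side, that islands covered. Over the genome, islands covered 474 to 615 Mb in the 8 libraries with the EZH2 inhibitor (546 ± 50.7, SD) and 484 to 674 Mb in the 8 libraries without it (605 ± 67.1).

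H3K27me3 is the trimethyl mark on lysine 27 of histone H3 that the Polycomb repressive complex deposits through its catalytic subunit EZH2, and it often lies in broad domains over genes that are silent in a cell type. Voltage-gated sodium channels open on depolarization and carry the rising phase of the action potential. The alpha subunit forms the pore, and smaller beta subunits adjust its gating and anchor it at the membrane. Their genes are used mainly in neurons and muscle, and outside those tissues many are silent.

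The cluster was measured as 1 locus of 1411.7 kb, from 2.5 kb before the first base of SCN3A to 2.5 kb after the last base of SCN7A. In order of position, SCN3A (NCBI Gene 6328, a channel of the fetal brain) spans chr2:165087526-165204050. SCN2A (Gene 6326, a channel of excitatory neurons and their axon initial segments) spans chr2:165239414-165392304 on the plus strand. SCN1A (Gene 6323, prominent in inhibitory interneurons and the main gene of Dravet syndrome) spans chr2:165984641-166149161 on the minus strand. SCN9A (Gene 6335, a channel of pain-sensing neurons) spans chr2:166195185-166375987 on the minus strand. SCN7A (Gene 6332, an atypical member known in rodents as a sensor of sodium concentration) spans chr2:166403573-166494249 on the minus strand. Between SCN2A and SCN1A lie 4 other protein-coding genes, which are CSRNP3, GALNT3, LOC124906086 and TTC21B. The antisense RNA gene SCN1A-AS1 (chr2:166081531-166301784, plus strand) overlaps both SCN1A and SCN9A, and islands carry no strand, so its coverage cannot be told apart from theirs.

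The starts of these genes differed in base composition and in their islands, and 4 of their promoter windows are shown for that contrast. They come from RefSeq (GRCh38.p14) and run from 250 bases before to 50 bases after an annotated start, 5′ to 3′ on the gene's own strand, with every CG dinucleotide in capitals. SCN2A, SCN1A, SCN9A and SCN7A had entries in the table, SCN2A, SCN1A and SCN7A with 2 starts each, and SCN3A had none.
SCN9A, chr2:166375895-166376194, minus strand: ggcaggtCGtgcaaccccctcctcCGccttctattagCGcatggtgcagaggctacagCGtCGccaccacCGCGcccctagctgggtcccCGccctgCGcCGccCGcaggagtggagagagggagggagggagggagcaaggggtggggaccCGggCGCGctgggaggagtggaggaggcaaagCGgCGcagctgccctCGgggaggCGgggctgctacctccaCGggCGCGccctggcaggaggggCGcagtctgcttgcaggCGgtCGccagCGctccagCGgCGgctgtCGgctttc
SCN7A upstream start, chr2:166494200-166494499, minus strand: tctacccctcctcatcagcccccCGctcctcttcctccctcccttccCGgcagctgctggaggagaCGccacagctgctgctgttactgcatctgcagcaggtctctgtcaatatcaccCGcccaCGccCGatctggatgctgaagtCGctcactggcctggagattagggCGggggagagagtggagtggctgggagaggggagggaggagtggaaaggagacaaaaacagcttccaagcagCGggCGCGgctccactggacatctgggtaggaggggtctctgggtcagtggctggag
SCN1A upstream start, chr2:166149112-166149411, minus strand: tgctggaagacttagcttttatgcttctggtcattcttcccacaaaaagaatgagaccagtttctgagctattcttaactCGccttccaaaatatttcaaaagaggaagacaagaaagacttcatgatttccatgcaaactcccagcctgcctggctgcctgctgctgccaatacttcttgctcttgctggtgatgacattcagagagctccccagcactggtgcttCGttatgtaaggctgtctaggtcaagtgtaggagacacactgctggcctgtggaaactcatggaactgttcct
SCN2A downstream start, chr2:165240810-165241109, plus strand: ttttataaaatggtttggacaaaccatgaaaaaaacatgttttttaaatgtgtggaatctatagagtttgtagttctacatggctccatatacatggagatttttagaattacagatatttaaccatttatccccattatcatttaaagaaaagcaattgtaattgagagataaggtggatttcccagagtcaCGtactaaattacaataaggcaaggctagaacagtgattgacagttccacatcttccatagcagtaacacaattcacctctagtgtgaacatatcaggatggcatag

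The SCN9A window held 28 CG and was 73.3% G or C, whereas the median over all 35116 promoter windows of the table was 14 CG and 58.7% G or C. Of all windows, 26.2% held at least as many CG as SCN9A, and 96.0% held at least 1. The SCN7A upstream window held 11 CG, the SCN1A upstream window 2 and the SCN2A downstream window 1. No island touched the SCN9A window in any of the 16 libraries. The SCN2A downstream window was touched in 5 of 8 libraries with the EZH2 inhibitor and in 8 of 8 without it. The SCN1A upstream window was touched in 2 of 8 libraries with the inhibitor and in 7 of 8 without it. The SCN7A upstream window was touched in 5 of 8 libraries in both, which were 3 of 4 combo, 2 of 4 EPZ, 4 of 4 P38i and 1 of 4 control libraries; the difference with P38i at this window was not tested. A CG count is a description of these 300 bases and was not set against island coverage over the genome.

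The remaining starts were touched as follows. The SCN2A upstream window (chr2:165239164-165239463, 2 CG) was touched in 0 of 8 libraries with the EZH2 inhibitor and 4 of 8 without it, and the SCN1A downstream window (chr2:166127971-166128270, 3 CG) in 1 of 8 with it and 3 of 8 without it. The SCN7A downstream window (chr2:166486922-166487221) held no CG and was touched in 6 of 8 libraries with the inhibitor and 8 of 8 without it. Over the window with 5 kb added on each side, mean coverage was lower with the inhibitor at all 7 starts. The smallest gap was at the SCN7A upstream start, with 83.6% with the inhibitor and 93.4% without it, and at SCN9A the values were 22.5% with it and 53.4% without it. Islands thus lay near the SCN9A start in both sets and left the window itself free.

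Islands covered less of the locus in libraries with the EZH2 inhibitor than in those without it, and the sodium channel genes at both ends of the cluster shared in this. Coverage of the locus was 11.8, 20.4, 18.0 and 17.5% in combo libraries 1 to 4, 13.0, 11.5, 14.2 and 24.7% in EPZ libraries, 37.6, 32.4, 38.4 and 22.0% in P38i libraries and 34.2, 45.6, 39.0 and 25.04% in control libraries. The sets with and without the EZH2 inhibitor overlapped through 1 library each, EPZ library 4 and P38i library 4. Mean locus coverage was 16.4% ± 4.62 (SD, n = 8) with the inhibitor, against 34.3% ± 7.73 (SD, n = 8) without it, a difference of -17.9 percentage points and a ratio of 0.478. In length this was 231.5 kb with the inhibitor against 484.1 kb without it. The covered length of the genome moved the same way by less, 546 Mb with the inhibitor and 605 Mb without it, a ratio of 0.903. The locus therefore held 0.0421% of a library's covered length with the inhibitor and 0.0797% without it.

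**Figure D1:**
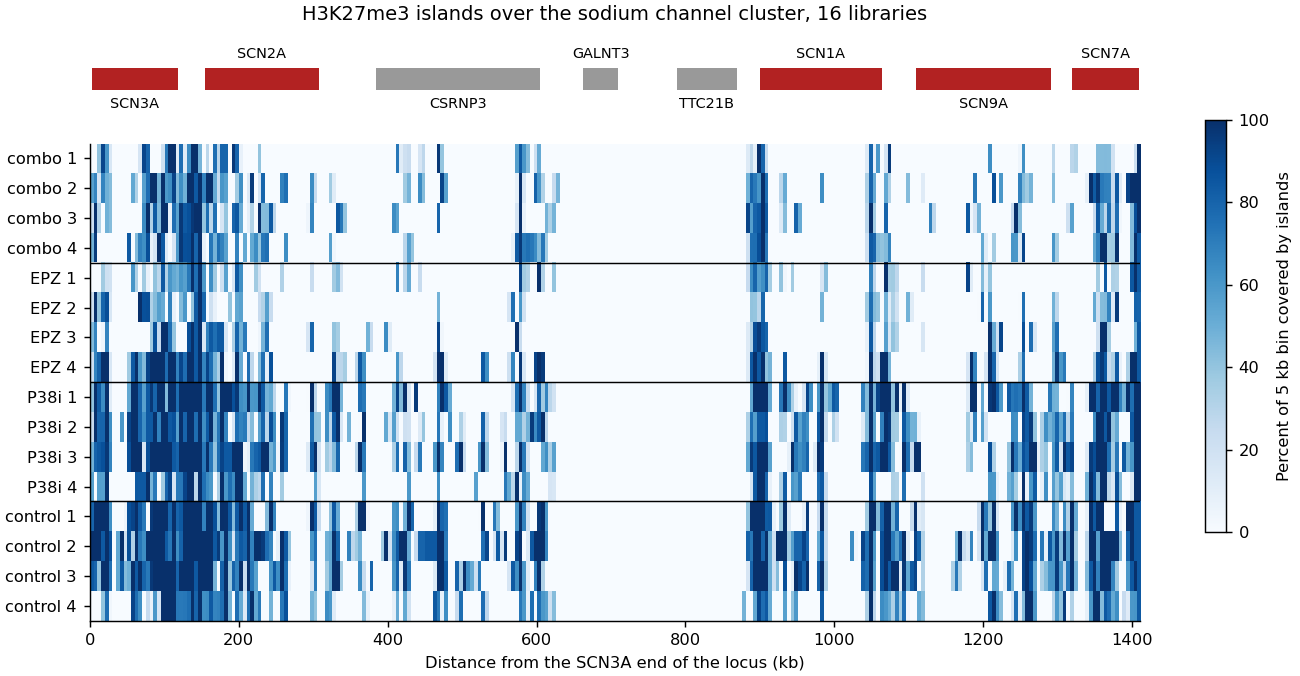
Percent of each 5 kb bin of the locus covered by H3K27me3 islands (colour, 0 to 100%), with 1 row per library and the distance from the SCN3A end of the locus in kb on the horizontal axis; boxes above mark the 5 sodium channel genes in red and other protein-coding genes in grey. The rows of the 8 combo and EPZ libraries at the top are paler over the sodium channel genes than the 8 P38i and control rows, and the stretch over GALNT3 and TTC21B is empty in all 16.

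Islands at the locus were also fewer in libraries with the EZH2 inhibitor. Combo libraries held 39, 55, 46 and 50 islands, EPZ libraries 57, 40, 41 and 49, P38i libraries 66, 90, 70 and 64, and control libraries 58, 79, 77 and 80. Counts with and without the EZH2 inhibitor did not overlap, with means of 47.1 ± 6.83 with it and 73.0 ± 10.4 without it. The nearest counts, 57 in EPZ library 1 and 58 in control library 1, were close. How often counts at other loci do not overlap was not counted, so nothing is read from this. The median island at the locus was 4.16 kb wide with the inhibitor and 5.06 kb without it, averaged over libraries, and the longest averaged 16.1 kb with it and 30.1 kb without it. Both widths overlapped between the sets. Over the genome, the median island of a library was 3.4 to 6.2 kb wide with the inhibitor and 4 to 7.4 kb without it. A library held 58362 to 85194 islands over the genome with the inhibitor and 53290 to 80543 without it. A single island of 46.4 kb in control library 2 was the longest at the locus in any library.

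**Figure D2:**
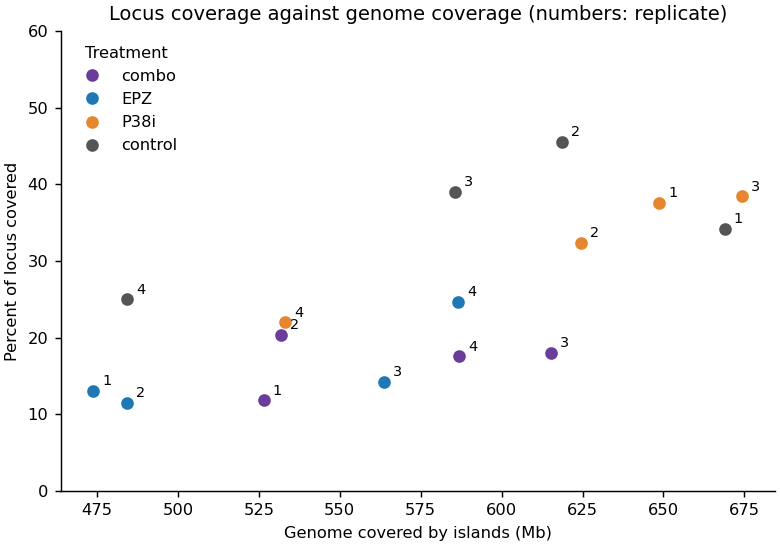
Percent of the locus covered by islands (vertical axis) against the length of the genome covered by islands in Mb (horizontal axis), 1 point per library, coloured by treatment and labelled with the replicate number. At a like genome coverage near 586 Mb, combo library 4 and EPZ library 4 sit at 17.5% and 24.7% of the locus and control library 3 at 39.0%, while near 532 Mb combo library 2 and P38i library 4 lie close together at 20.4% and 22.0%.

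Within P38i and control, the library with the lowest coverage of the locus was also the one with the least of the genome covered, at 533 Mb in P38i library 4 and 484 Mb in control library 4. EPZ library 4, the highest of its group at the locus, had the most of the genome covered in its group, at 587 Mb. Other libraries went the other way. Control library 1 had the most of the genome covered in its group, at 669 Mb, but 34.2% of the locus, less than control libraries 2 and 3. Combo library 2 was the highest of its group at the locus, at 20.4%, with 532 Mb, less than combo libraries 3 and 4. When every list was shortened to its widest islands up to 474 Mb, the covered length of the smallest list, locus coverage was lower with the EZH2 inhibitor, by -10.4 points. That setting keeps wide islands first and does not equalize read depth. The median locus island averaged 5.06 kb without the inhibitor and 4.16 kb with it, and whether this shaped the difference was not tested. No library stood apart from its group of 4 by Dixon's test in any of the 24 sets of values checked, which were the locus and the 5 genes in each group. With 4 values, this test flags a library only when its gap to the next is most of the range. For SCN3A, control library 4 was at 39.6% and the other control libraries at 72.8 to 80.3%, and it was not flagged.

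Each of the 5 genes had a lower mean coverage with the EZH2 inhibitor, whether EPZ was compared with control or combo with P38i. Over the fit of all 4105 genes tested, 16.5% were called for this contrast at an adjusted p under 0.05 and 15.6% were called lower, and nothing is read from that for genes chosen with the contrast known. The median difference over the 5 genes was -23.8 points and over all genes tested -4.84 points, with 78.03% of all genes tested lower. The share of all genes tested whose sets with and without the inhibitor did not overlap was not counted. Overlap is therefore only described for these genes, and nothing is read from it.

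SCN3A, at the outer end of the cluster, had the highest coverage of the 5 genes in 9 of 16 libraries. Islands covered 29.1, 47.5, 38.5 and 33.5% of its span in combo libraries, 24.0, 36.3, 26.6 and 64.8% in EPZ libraries, 65.8, 71.5, 72.0 and 43.1% in P38i libraries and 72.8, 79.4, 80.3 and 39.6% in control libraries. EPZ library 4 stood near the P38i and control values, while P38i library 4 and control library 4 stood near the EPZ and combo values, so the sets overlapped. The means were 37.5% ± 13.3 with the EZH2 inhibitor and 65.6% ± 15.7 without it, a difference of -28.0 points. With covered length as a covariate the difference was -17.6 points.

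SCN2A was the third of the 5 genes in 14 of 16 libraries. Its coverage was 16.3, 30.3, 27.4 and 25.6% in combo libraries, 15.0, 11.2, 27.5 and 27.4% in EPZ libraries, 53.6, 45.8, 58.1 and 35.0% in P38i libraries and 48.6, 59.97, 47.8 and 40.2% in control libraries. Every library with the EZH2 inhibitor lay below every library without it. The means were 22.6% ± 7.23 with the inhibitor and 48.6% ± 8.52 without it, a difference of -26.0 points. With each gene split into 4 equal parts numbered by position, coverage sloped along SCN2A. Part 1, which holds its starts, averaged 38.4% with the inhibitor and 73.2% without it, and part 4 averaged 4.58% with it and 17.9% without it. In part 2, at 32.3% with it and 63.0% without it, the sets again did not overlap, whereas in parts 1, 3 and 4 they did.

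SCN1A, the gene of interneurons, was the fourth in 15 of 16 libraries. Islands covered 9.47, 15.0, 17.7 and 15.0% of it in combo libraries, 14.1, 10.4, 9.95 and 21.3% in EPZ libraries, 48.9, 33.7, 43.1 and 25.9% in P38i libraries and 33.2, 50.4, 43.8 and 22.2% in control libraries. The sets did not overlap, although the highest value with the inhibitor (EPZ library 4, 21.3%) and the lowest without it (control library 4, 22.2%) were close. The means were 14.1% ± 4.12 with the inhibitor and 37.7% ± 10.5 without it, a difference of -23.6 points. Part 2 had the largest difference of the 4 parts of SCN1A, 3.53% with the inhibitor and 42.3% without it. In that part 4 of the 8 libraries with the inhibitor had no island at all.

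SCN9A, the pain-neuron channel, had the lowest coverage of the 5 genes in 15 of 16 libraries. Its values were 4.24, 12.1, 11.2 and 9.52% in combo libraries, 5.92, 6.29, 13.3 and 14.04% in EPZ libraries, 33.1, 23.04, 29.2 and 17.2% in P38i libraries and 27.6, 39.7, 27.8 and 21.3% in control libraries. The sets did not overlap. The means were 9.57% ± 3.69 with the inhibitor and 27.4% ± 7.06 without it, a difference of -17.8 points, and the ratio of 0.350 was the lowest of the 5 genes. SCN9A runs on the minus strand, so part 4 holds its start, and that part averaged 10.5% with the inhibitor and 46.1% without it, again with no overlap. Part 1, at the other end of the gene, was nearly free in both sets, at 2.05% with the inhibitor and 5.27% without it. The sets overlapped in parts 1, 2 and 3 of SCN9A and in every part of SCN3A, SCN1A and SCN7A.

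SCN7A, the sodium-sensing member at the other end of the locus, ranked first in 6 libraries and second in 9. It was covered over 21.5, 54.5, 35.2 and 39.5% in combo libraries, 25.4, 27.7, 22.1 and 41.8% in EPZ libraries, 70.3, 47.5, 61.5 and 48.4% in P38i libraries and 53.2, 69.3, 62.2 and 46.1% in control libraries. Combo library 2 reached into the range of the libraries without the EZH2 inhibitor, and the other 7 lay below all of them. The means were 33.5% ± 11.5 with the inhibitor and 57.3% ± 9.80 without it, a difference of -23.8 points. Part 2 averaged 45.8% with the inhibitor and 85.6% without it.

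**Figure D3:**
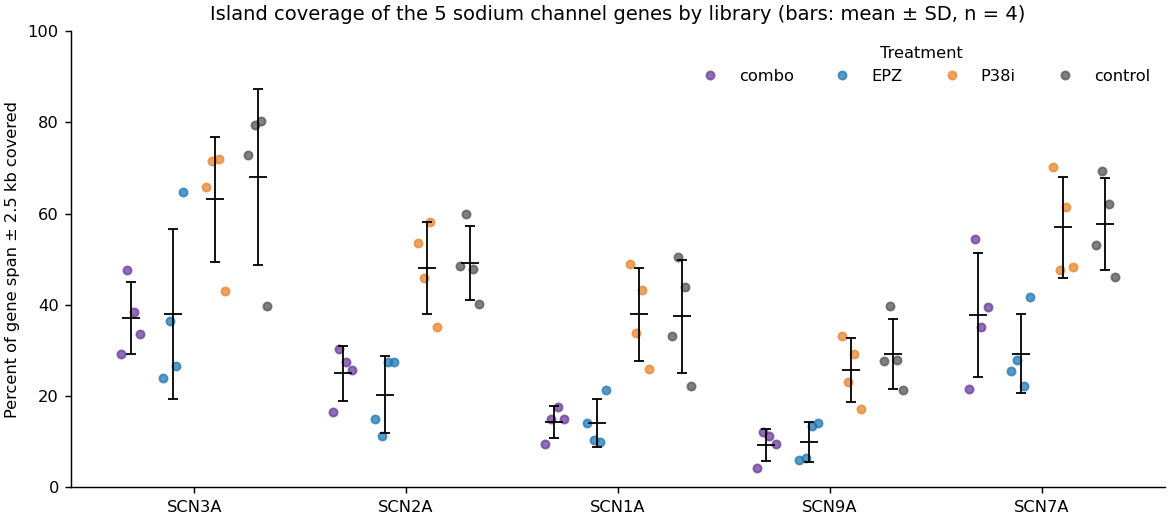
Percent of the span of each gene with 2.5 kb on each side that islands covered (vertical axis), for combo, EPZ, P38i and control from left to right within each gene; points are libraries and bars give the mean ± SD (n = 4). For SCN2A, SCN1A and SCN9A all combo and EPZ points lie below all P38i and control points, and for SCN3A and SCN7A the ranges meet. The share of such genes among all genes tested was not counted.

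The other protein-coding genes of the locus were partly covered or empty. CSRNP3, a nuclear protein gene next to SCN2A, averaged 11.4% with the EZH2 inhibitor and 27.4% without it, with overlap. GALNT3, which encodes an enzyme of mucin-type glycosylation, TTC21B, a gene of transport within cilia, and LOC124906086 had no island in any of the 16 libraries. They lie in 1 stretch of 249.6 kb (chr2:165712401-165962000) that no island entered, about the middle of the locus. Both GALNT3 and TTC21B have promoter windows with 28 CG, as SCN9A has. The CSRNP3 window held 2 CG and was also touched in no library, so free windows at the locus were not only those rich in CG.

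The gaps between the sodium channel genes ranged widely. The 35.4 kb between SCN3A and SCN2A was the most covered part of the locus, at 72.0% with the EZH2 inhibitor and 90.3% without it. The 46.0 kb between SCN1A and SCN9A averaged 15.3% with it and 52.7% without it, and the 27.6 kb between SCN9A and SCN7A averaged 16.5% with it and 56.9% without it. In both of these gaps the sets overlapped, the first through P38i library 4 at 15.2% and the second through EPZ library 4 at 50.03%. The 30.9 kb between TTC21B and SCN1A differed less, at 35.8% with the inhibitor and 43.8% without it.

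**Figure D4:**
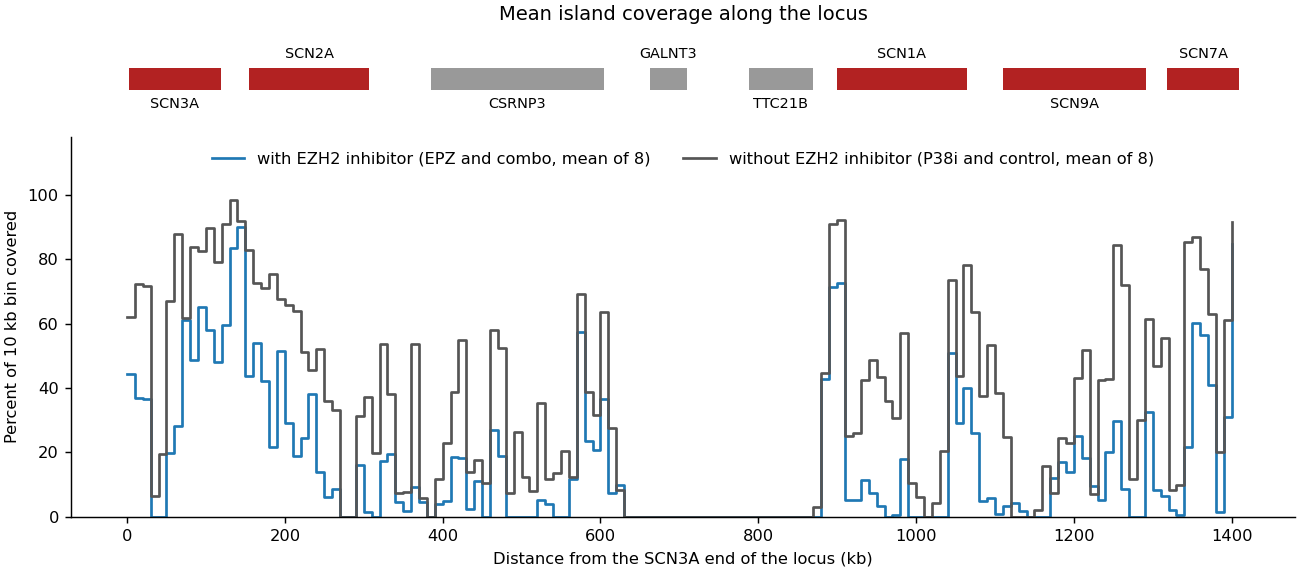
Mean percent of each 10 kb bin covered by islands (vertical axis) along the locus (distance from its SCN3A end in kb), for the 8 libraries with the EZH2 inhibitor (blue) and the 8 without it (grey); boxes mark genes as in the heat map. Between SCN3A and SCN2A, in the bin 140 kb from the SCN3A end, the lines nearly meet at 90.0% with the inhibitor and 91.8% without it, and they stand farthest apart in a bin of SCN7A, at 21.6% with it and 85.2% without it.

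Of the 141 bins of 10 kb, a mean of 20.5 were at least 50% covered with the EZH2 inhibitor and 48.5 without it. In 78 bins more libraries without the inhibitor than with it reached that level, and in 1 bin, in CSRNP3, the reverse was seen. Only 2 bins reached it in all 16 libraries, 1 in the gap between SCN3A and SCN2A (chr2:165225026-165235025) and 1 in SCN7A at the end of the locus (chr2:166485026-166495025), and 54 reached it in none. In 5 bins at least 7 of 8 libraries without the inhibitor and at most 1 of 8 with it reached the level. They lay in SCN2A (2 bins), SCN9A (2 bins) and SCN7A (1 bin), and no bin showed the reverse. The bin chr2:166335026-166345025 in SCN9A separated the sets completely, with 0 of 8 libraries with the inhibitor and 8 of 8 without it, at means of 29.7% with it and 84.3% without it. The shares of 10 kb bins over the genome that differ in these ways were not counted. Since the locus was chosen with this contrast known, the bin counts are a description and nothing is read from them.

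At the resolution of the caller's windows of 200 bp, 14.8 kb of the locus was covered in all 16 libraries, in 10 stretches. The longest were chr2:165223001-165225800 and chr2:165229601-165232400, of 2.8 kb each, between SCN3A and SCN2A. The longest inside genes was 2.2 kb in SCN7A (chr2:166489001-166491200), followed by 1.8 kb in SCN1A (chr2:166133601-166135400). SCN2A held 1 such stretch of 1.2 kb (chr2:165282801-165284000), and SCN3A and SCN9A held none. These positions kept an island in every treatment group.

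Another 496.2 kb of the locus, 35.2%, was covered in none of the libraries. After the stretch over GALNT3 and TTC21B, the longest were 27.2 kb in SCN2A (chr2:165352001-165379200), 27 kb in SCN9A (chr2:166216401-166243400), 17.8 kb in SCN1A (chr2:166089001-166106800) and 15.0 kb in SCN7A (chr2:166407601-166422600). The SCN9A start sat in a free stretch of 2.0 kb (chr2:166374801-166376800).

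Islands with the EZH2 inhibitor mostly fell inside the ground covered without it. Across 8 libraries each, 598.6 kb was covered at least once with the inhibitor and 888.8 kb without it. Of the length covered with the inhibitor 95.6% was also covered without it, and of the length covered without it 64.4% was also covered with it. The 888.8 kb was most of the 915.2 kb covered in any library, so these shares follow largely from the lengths themselves. Positions covered in all 8 libraries came to 19.2 kb with the inhibitor and 96.2 kb without it. No position was covered in all 8 libraries of one set and in none of the other.

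The p38 inhibitor contrasts ask whether coverage of these genes differed with P38i, over all libraries, without EPZ or on top of it. No difference passed the test at the locus. Coverage averaged 24.8% ± 10.0 with P38i (P38i and combo) and 25.9% ± 12.8 without it (control and EPZ; SD, n = 8 each), a difference of -1.14 points (two-sided exact permutation test over 12870 arrangements, p = 0.839). Each side held libraries with and without EPZ, and the arrangements did not keep these apart. The SDs and the p-value of this comparison therefore include the difference with the EZH2 inhibitor, which makes the test less sensitive. Coverage was 32.6% ± 7.56 in P38i and 36.0% ± 8.65 in control libraries, a difference of -3.36 points (exact permutation p = 0.543, n = 4 each), and 16.9% ± 3.64 in combo and 15.9% ± 5.98 in EPZ libraries, a difference of 1.07 points (exact permutation p = 0.8). All 3 had an adjusted p of 0.839, and 4 libraries against 4 cannot give a p below 0.0286. Spreads within groups exceeded each of these differences, so changes of a few points may have been missed here.

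Gene by gene, limma (trend, robust) was fitted to all 16 libraries over the 4105 genes with a mean coverage of 5 to 95%, and all 5 genes were among them. With P38i against without it, 0 of the 5 genes were called at an adjusted p under 0.05, and the background was 0.122% of all genes tested (5 genes). The differences ran from -2.86 points (SE 7.38) for SCN3A, at 50.1% ± 17.3 with P38i and 53.0% ± 23.8 without it, to 3.83 points (SE 5.41) for SCN7A, at 47.3% ± 15.4 with P38i and 43.5% ± 17.5 without it. SCN2A differed by 1.81 points (SE 4.28), SCN1A by 0.41 (SE 4.30) and SCN9A by -2.05 (SE 3.08). The SDs given here again span libraries with and without EPZ, whereas each SE comes from the fit of 4 groups. Adjusted p-values from limma were 0.782 to 0.979, and none of the 5 had an unadjusted p under 0.05. The median was 0.41 points over the 5 genes and 3.04 points over all genes tested.

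For P38i against control, 0 of the 5 genes were called by limma, beside 0.292% of all genes tested (12 genes). Differences ran from -4.93 points for SCN3A to 0.47 points for SCN1A, with adjusted p-values of 0.877 to 0.992. For combo against EPZ, 0 of the 5 were called, beside 0% of all genes tested, of which 224 had an unadjusted p under 0.05. Differences ran from -0.80 points for SCN3A to 8.39 points for SCN7A (SE 7.65; 37.7% ± 13.6 in combo and 29.3% ± 8.64 in EPZ), with adjusted p-values of 0.890 to 0.997. The medians over the 5 genes were -1.01 and 0.35 points, and over all genes tested 2.90 and 3.02 points.

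The interaction asks whether the difference with EPZ was itself different on top of P38i, and it shares its libraries with the contrasts that chose the genes. None of the 5 genes was called, beside 0.0487% of all genes tested (2 genes), and none had an unadjusted p under 0.05. Estimates ran from -0.12 points (SE 8.59) for SCN1A to 9.13 points (SE 10.8) for SCN7A, all with an adjusted p of 1 by limma. For SCN1A the difference was -23.5 points for EPZ against control and -23.6 points for combo against P38i. For SCN7A, where they stood farthest apart, it was -28.4 points for EPZ against control and -19.3 points for combo against P38i.

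Of 8 other sodium channel genes reported, all on other chromosomes, 4 were tested for the EZH2 inhibitor with limma, and 0 were called in either direction, beside the 16.5% given above for all genes tested; 1 had an unadjusted p under 0.05, as had 1327 of all 4105 genes tested. That was SCN8A, a widely used channel of brain axons, at 74.96% ± 6.99 with the inhibitor and 84.1% ± 7.52 without it (difference -9.13 points, SE 3.50, adjusted p = 0.0876). Without EPZ library 4 its adjusted p was 0.0476, and without P38i library 4 it was 0.0118.

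The other 7 were mostly covered, or had few islands or none. SCN11A, a channel of pain-sensing neurons, averaged 89.6% with the EZH2 inhibitor and 92.8% without it (adjusted p = 0.175 by limma). The beta subunit gene SCN2B averaged 71.1% with it and 77.3% without it (adjusted p = 0.600), and SCN4B averaged 73.2% with it and 80.4% without it (adjusted p = 0.270). With lists of equal length the sign of the difference turned for SCN2B (7.84 points) and SCN4B (10.5), and neither was called there. SCN10A (96.1% with the inhibitor, 97.6% without it) and the beta subunit gene SCN3B (96.1% with it, 95.6% without it) were above the limit for testing. NALCN, the leak channel gene, was below that limit, at 3.51% with the inhibitor and 4.196% without it. SCN4A, the channel of skeletal muscle, had no island in any library. With P38i, 0 of the 4 tested genes were called, beside 0.122% of all genes tested. Whether the 5 genes of the cluster differed from these 8 was not tested, since the cluster was chosen with this contrast known. Their levels were also unlike. Without the inhibitor the 4 tested genes averaged 77.3 to 92.8% covered and the 5 cluster genes 27.4 to 65.6%, so differences in points are not directly comparable.

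**Figure D5:**
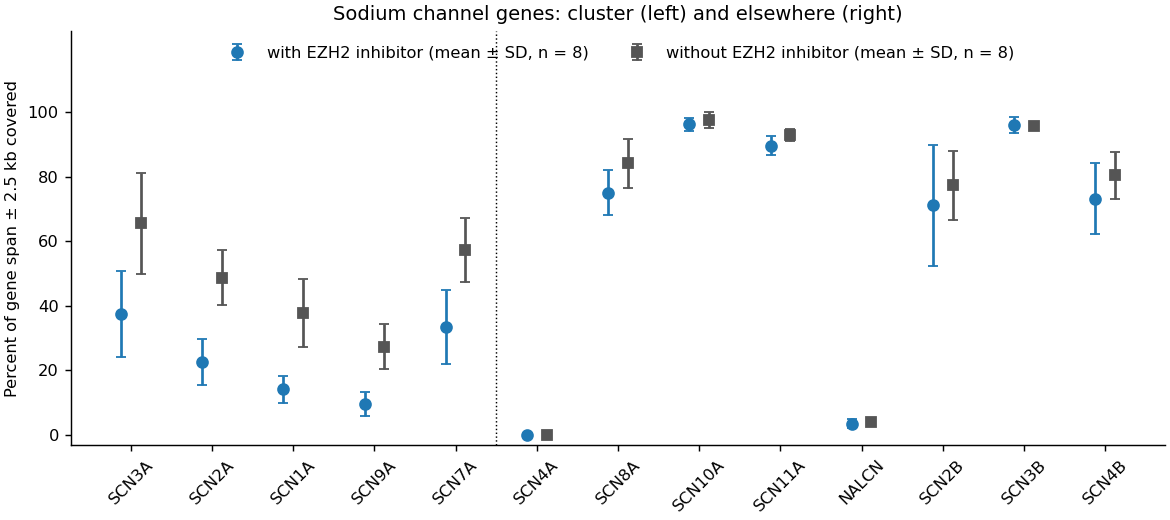
Percent of the gene span with 2.5 kb on each side covered by islands (vertical axis; mean ± SD, n = 8) for the 5 genes of the cluster, left of the dotted line, and 8 other sodium channel genes, right of it, with the EZH2 inhibitor (blue circles) and without it (grey squares). The bars of the 2 sets overlap for SCN3A in the cluster and for every gene with islands outside it, and SCN4A is at 0.

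Among 7 genes whose products bind or position sodium channels, 3 were tested for the EZH2 inhibitor and 1 was called, beside the 16.5% called and 15.6% called lower among all genes tested. ANK3, the ankyrin that holds sodium channels at the axon initial segment, fell to 24.98% ± 5.19 with the EZH2 inhibitor, against 35.9% ± 5.32 without it (difference -11.0 points, SE 3.16, adjusted p = 0.0301 by limma). The call was lost in 9 of 16 repeats that left out 1 library, with an adjusted p of up to 0.0669, and with lists of equal length (0.144) or with covered length as a covariate (0.0871). FGF12 and FGF14, whose products bind the tails of alpha subunits, were not called: FGF12 averaged 81.4% with the inhibitor and 87.6% without it (adjusted p = 0.173), and FGF14 averaged 73.9% with it and 81.7% without it (adjusted p = 0.145). FGF11, FGF13, ANK2 and NEDD4L, a ubiquitin ligase that removes channels from the membrane, had no island. Of 7 genes of the REST repressor and its partners, which silence neuronal genes outside neurons, 6 had no island (REST, RCOR1, SIN3A, HDAC1, HDAC2 and KDM1A). RCOR2, a corepressor, averaged 6.62% ± 10.2 with the EZH2 inhibitor and 19.7% ± 18.7 without it (adjusted p = 0.0882), with islands in 8 of 16 libraries. Without combo library 4 its adjusted p was 0.0468, and without P38i library 4 it was 0.0223. RCOR2 averaged 22.5% ± 17.0 with P38i and 3.83% ± 7.79 without it, a difference of 18.6 points (SE 5.02, unadjusted p = 0.00219, adjusted p = 0.150 by limma).

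Genes elsewhere in the genome had coverage close to that of single members. For each gene of the cluster, the nearest among 4099 tested genes were found by the mean absolute difference in percent covered over the 16 libraries, which describes likeness in level and pattern. SCN9A had the closest match, MPP7, a scaffold protein gene, at 3.11 points, then the potassium channel gene KCNH7, at 3.46 points, which is also on chromosome 2 (chr2:162371407-162838767). KCNH7 averaged 11.6% ± 3.04 with the EZH2 inhibitor and 28.1% ± 7.86 without it. SCN2A lay nearest to the receptor kinase gene ROS1 (4.39 points) and to PREX2 (4.78), and SCN1A to IRAG2 (4.44) and the adhesion receptor gene ADGRV1 (4.49). SCN3A lay nearest to FHL5 (6.07) and the transporter gene SLCO6A1 (7.07), and SCN7A to GUCY1A1, a subunit gene of soluble guanylate cyclase (6.46), and ZFPM2 (6.56). Each of these matched genes had a lower mean with the EZH2 inhibitor. The smallest gap was in MPP7 (12.85% with it, 25.2% without it) and the largest in GUCY1A1 (29.3% with it, 56.8% without it). The matching used all 16 libraries, so a like difference is largely built in. Within the cluster the closest pair was SCN1A and SCN9A at 7.84 points and the farthest SCN3A and SCN9A at 33.1 points.

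Islands do not measure expression, but their places can be set beside the label of the cells. Genes that mesenchymal-like breast cancer lines express, VIM, CD44, CAV1 and SPARC, had no island in any library, and neither did the housekeeping genes ACTB, GAPDH, RPLP0 and TBP or the inhibitors' target genes EZH2 and MAPK14. Of the luminal genes, PGR, the progesterone receptor gene, averaged 95.4% covered over the 16 libraries, FOXA1 56.6% and ESR1 10.2%. GATA3, EPCAM and CDH1 had none.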

How the data were processed

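H3K27me3 ChIPmentation was analysed in 16 libraries of MDA-MB-231 cells, 4 each of combo, EPZ, P38i and control. The deposited lists give the start and end of each island in base pairs, called per library by the authors, and no other unit, score or count. Per the submitters' processing notes the island caller was SICER and the build hg38, and the tools named beside it are Bowtie2 2.3.4.1, SAMtools 1.2, Picard, bedtools 2.28.0, cutadapt, Trim Galore and FastQC. The caller's settings, the order of steps and the use of IgG are not given in the sources analysed. Deposited islands lay on windows of 200 bp, the shortest was 200 bp and the smallest gap 800 bp. A broad-domain caller joins windows across gaps, so coverage can change with depth as well as with the mark, and depth is unknown.

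Chromosomes 1 to 22 and X were analysed, with scipy 1.17.1, pandas 2.3.3 and numpy 2.4.6 in Python 3.11.15 and figures by matplotlib 3.10.9. Coverage by own code was checked on 500 genes against bedtools 2.31.1, with a largest difference of 0. Gene spans and promoter windows came from RefSeq (GRCh38.p14), exon structure was not used, and of 19974 protein-coding genes 13584 had no island. limma 3.58.1 (R 4.3.3; trend, robust; tested on simulated data) was fitted to percent coverage of the 4105 genes with a mean of 5 to 95% (15518 were below and 351 above), in 1 fit of 4 groups, with Benjamini-Hochberg adjustment for each contrast. Locus coverage was compared by two-sided exact permutation tests, adjusted over 3 tests. For the p38 inhibitor main effect, libraries with and without EPZ were permuted together.

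The members, the lists and the tests were chosen with earlier results of these data known. Named genes were the 5 members, genes of the locus, the listed sodium channel, partner and REST genes, and for each member the 2 tested genes outside the locus closest in coverage. Some listed genes are not reported here. Same-group lists shared 0.577 to 0.723 of their joint length, so no library was a copy of another. Alternatives were island width, lists of equal length, scaling, span, filter, scale, covariate, replicate block, bin size and each library left out. No pairing by replicate number was seen. Between groups, deviations of same-numbered libraries correlated at -0.151 to 0.178 (24 pairs) and those of other libraries at -0.204 to 0.163 (72 pairs).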

Additional observations from a re-analysis of the deposited data

How the results depend on the processing

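Lower coverage with the EZH2 inhibitor kept its direction at the locus and in all 5 genes under every alternative run for it. The arcsine scale was not run for it in the 5 genes, nor the replicate block at the locus. These alternatives reuse the libraries with which the cluster was chosen, so this is a description. No alternative called any of the 5 genes for a p38 inhibitor contrast or the interaction, or the locus for a p38 inhibitor contrast. At the locus the replicate block could not have done so for P38i against control or combo against EPZ, since 4 pairs allow no p below 0.125. The cause of the changes below was not tested, beyond fewer libraries, genes or islands where the alternative itself leaves them out.

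With lists of equal length, the EZH2 inhibitor difference was -10.4 points at the locus, -14.4 for SCN2A, -14.9 for SCN1A and -7.75 for SCN9A. The same lists turned the sign of combo against EPZ at the locus (-0.71 points), of P38i against control for SCN3A (0.77), SCN1A (-3.89) and SCN7A (0.031), of the p38 inhibitor main effect for SCN2A (-2.46) and SCN1A (-3.55), of combo against EPZ for SCN1A (-3.21), and of the interaction for SCN3A (-6.34), SCN1A (0.68) and SCN9A (-1.85). They also turned the EZH2 inhibitor difference of SCN2B (7.84) and SCN4B (10.5). With covered length as a covariate the sign turned for SCN2A (-1.79) and SCN1A (-2.69) in the p38 inhibitor main effect, for SCN1A in P38i against control (-2.31) and combo against EPZ (-3.07), and for SCN2B (2.53) with the EZH2 inhibitor. Islands of at least 2 kb turned SCN7A in P38i against control (0.24) and SCN1A in the interaction (0.35), which was 0.000808 on the arcsine scale. None of these was past the threshold on either side.

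Genes called with the EZH2 inhibitor numbered 678, against 168 with lists of equal length and 387 with covered length as a covariate. For the p38 inhibitor main effect (5 genes), counts were 3 with no flank, 15 with a flank of 5 kb, 2 with islands of at least 2 kb, 0 with lists of equal length and 3 with the covariate. For P38i against control (12 genes) they were 21 with a flank of 5 kb, 4 with lists of equal length, 21 with no filter and 6 with the covariate. For the interaction (2 genes) they were 1 with islands of at least 2 kb, 0 with lists of equal length, 5 with no filter and 1 with the replicate block. Bins covered in all 16 libraries numbered 2, against 6 at 25% and 0 at 75% of a bin, and bins covered in none 54 of 141, against 33 at 25% and 96 of the 282 bins of 5 kb.

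With 1 library left out, genes called ranged from 420 (without P38i library 3) to 926 for the EZH2 inhibitor, 3 to 32 (without control library 1) for the p38 inhibitor main effect, 5 to 31 for P38i against control, 0 to 2 for combo against EPZ and 0 to 4 for the interaction. Locus differences ranged from -3.20 to 1.67 points for the p38 inhibitor main effect, -7.00 to 0.18 for P38i against control and -0.38 to 4.01 for combo against EPZ. Gene differences in the p38 inhibitor main effect ranged from -7.60 to 1.61 for SCN3A and -2.12 to 2.58 for SCN1A. For P38i against control they ranged from -14.4 to 1.75 for SCN3A, -4.33 to 3.36 for SCN2A, -4.60 to 4.81 for SCN1A, -6.07 to 0.068 for SCN9A and -5.19 to 3.14 for SCN7A. For combo against EPZ they ranged from -5.45 to 8.16 for SCN3A, -0.98 to 2.81 for SCN1A and -1.94 to 1.05 for SCN9A, and for the interaction from -2.55 to 13.6 for SCN3A, -4.46 to 4.95 for SCN1A and -0.69 to 5.45 for SCN9A. Without a change of sign, SCN7A ranged from 2.78 to 13.8 for combo against EPZ and from 3.51 to 14.5 for the interaction, and SCN2A from 0.16 to 4.00 for the p38 inhibitor main effect. SCN2B with the EZH2 inhibitor ranged from -8.90 to 0.13.

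The labels do not say whether the replicate numbers pair libraries across groups. For 5 of 16 libraries, the mean correlation with libraries of the other groups was highest for their own number, among 4 numbers. With the replicate block, the locus difference for the p38 inhibitor was -1.14 points (exact sign-flip p = 0.656), genes called with the EZH2 inhibitor numbered 587, and apart from the interaction no count moved by over 1.5 times. Without counts, depth sets no interval on any value here. A difference smaller than the spread of a group may have been missed, and the size that could be seen was not computed.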
